A study of Homo sapiens with 18 samples.

Results

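SFRP1, SFRP2, SFRP4, SFRP5, WIF1, DKK1, DKK2 and DKK3 encode secreted proteins that restrain Wnt signalling, and their promoters were followed here across 3 cell lines and 18 libraries. The 8 genes were listed by name, by a rule that uses no measured value but with earlier results of these data known, out of 20136 protein-coding genes. For each gene, the window of 1 kb either side of its 5′ end in GRCh37 (hg19) was examined. Methylation was the share of methylated reads at each CpG with at least 10 reads in reduced representation bisulfite sequencing (RRBS), and enrichment was the number of fragments per window in sequencing after capture with a methyl-CpG binding domain (MBD-seq). The cell lines were HCT15, a colorectal carcinoma line, and DU145 and PC3, both prostate carcinoma lines, grown in complete medium with no treatment given in the labels, and extracted with the same DNA kit. The labels give ATCC as the supplier of all 3 lines, while the study's methods name another supplier for DU145 and a later passage at collection, so supplier and passage cannot be told apart from the difference between DU145 and the other lines. In each line, MBD-seq was carried out once with each of 5 commercial kits (MethylMagnet, MethylCollector, MethylCollector Ultra, MethylCap and MethylMiner), and RRBS was carried out once. No kit or line was repeated, so a difference between 2 RRBS libraries compares those libraries, and in MBD-seq the kits take the place of replicates. A promoter level is given as mean ± SD over CpGs, which describes the spread along the promoter and not the error between cultures.

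Wnt proteins bind Frizzled receptors and LRP5/6 at the cell surface, which stabilises beta-catenin and turns on TCF target genes. Secreted frizzled-related proteins (SFRPs) carry a Frizzled-like domain and bind Wnt proteins, WIF1 binds Wnt proteins through its WIF domain, and Dickkopf proteins such as DKK1 and DKK2 bind LRP5/6, while DKK3 is a divergent family member. Hypermethylation of these promoters is a well known feature of colorectal cancer, where SFRP and WIF1 promoters are among the most studied loci.

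Several features of the libraries stood apart and bear on every value below. Depth in MBD-seq ranged from 10040 fragments (DU145 MethylMagnet) to 7344098 (HCT15 MethylMiner), and a count of 0 allows up to 3 fragments, or a per-million level (fragments scaled to the library's total) of 299 in the shallowest library and 0.408 in the deepest. In 12 of 15 libraries, mean depth was highest over CpGs that RRBS found methylated in the labelled line alone. The exceptions were the 3 MethylMiner libraries. In bins of 1 Mb, however, log2 counts were taken relative to the mean of the 3 lines of the same kit. On this scale, each MethylMiner library correlated with the MethylCap library of its own line. The values were r = 0.755 in HCT15, 0.710 in DU145 and 0.713 in PC3, over 2704 bins of the same genome, as a description. With the MethylCap libraries of the other lines, r lay between -0.527 and -0.0883, but subtracting the mean of the lines by itself pushes these values below 0. MethylMiner counts were alike over promoters of low and high methylation. Over the windows of all genes with at least 100 CpGs, HCT15 MethylMiner had a median of 10 fragments where RRBS gave at most 20% and 10 fragments where it gave at least 80%, against 1 and 24 for HCT15 MethylCap. Results that rest on MethylMiner are therefore given with and without it. PC3 had no RRBS CpG on chromosome 22, which holds none of the 8 genes.

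The second feature was a property of single CpGs in RRBS. CpGs inside the sequence CCGG, the cut site of MspI, the enzyme commonly used in RRBS (the enzyme is not given in the sources used here), read higher than their neighbours in all 3 lines. In the windows of all genes whose CpGs outside CCGG averaged at most 5%, the CpGs inside CCGG had a median of 51.3% in HCT15 (4822 windows), 52.1% in DU145 (4668) and 52.1% in PC3 (4783). Where the CpGs outside CCGG averaged at least 95%, both kinds were alike, with 96.3% inside against 96.4% outside in HCT15. The cause was not tested. Levels are given below over all CpGs and over those outside CCGG, the second choice having been made after seeing the data. DKK1 showed the pattern most plainly, with 52.7% inside CCGG (9 CpGs) and 0.193% outside (25 CpGs) in DU145.

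**Figure D1:**
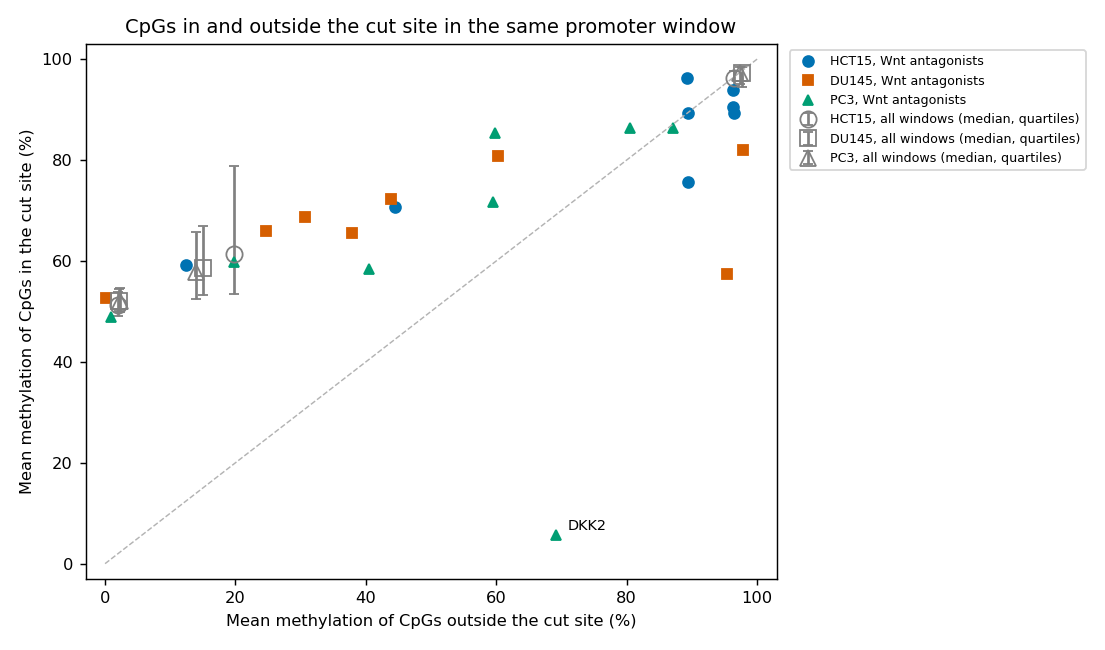
Mean RRBS methylation (%) of CpGs in the cut site CCGG (vertical axis) against that of the other CpGs of the same promoter window (horizontal axis), for 8 Wnt antagonists in 3 cell lines (coloured) and as median and quartiles over all windows in 3 classes of the horizontal value (grey). The dashed line marks equal values. Windows near 0% outside the site sit near 50% inside it, and DKK2, which rests on 2 to 4 CpGs in the site, lies far below the line in PC3 (5.64% inside, 69.2% outside) and below it in DU145 (57.5%, 95.3%).

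The stretches below are shown because the mean methylation of their CpGs differs between the lines, or, in SFRP2 and DKK1, because it is high or low in all 3. They were read from GRCh37 on the strand of the gene, and none overlaps an annotated UTR. Capitals mark CpGs that had at least 10 reads in at least 1 line, as CCGG where the CpG lies inside that sequence and as CG otherwise. WIF1 upstream lies at chr12:65515385-65515510 on the minus strand and ends 300 bp before the gene. WIF1 coding is the start of the reading frame in exon 1 at chr12:65514875-65514971 (minus). SFRP5 upstream is chr10:99531757-99532016 (minus), the 260 bp before the gene. SFRP2 coding, chr4:154709595-154709685 (minus), and SFRP4 coding, chr7:37955959-37956139 (minus), lie in the reading frame of the first exon. DKK1 upstream, chr10:54073781-54074040 on the plus strand, overlaps exons of the antisense transcript PRKG1-AS1.
WIF1 upstream: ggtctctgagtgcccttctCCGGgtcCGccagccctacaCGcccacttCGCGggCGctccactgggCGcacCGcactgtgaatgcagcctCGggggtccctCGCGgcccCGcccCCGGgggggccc
WIF1 coding: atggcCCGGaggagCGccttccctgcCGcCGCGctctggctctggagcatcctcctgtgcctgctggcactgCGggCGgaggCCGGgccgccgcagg
SFRP5 upstream: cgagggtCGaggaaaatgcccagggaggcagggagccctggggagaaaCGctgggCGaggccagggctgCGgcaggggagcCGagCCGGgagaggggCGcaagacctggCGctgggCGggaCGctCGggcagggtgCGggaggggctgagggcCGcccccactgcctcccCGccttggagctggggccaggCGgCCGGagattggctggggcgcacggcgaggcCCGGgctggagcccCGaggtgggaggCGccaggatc
SFRP2 coding: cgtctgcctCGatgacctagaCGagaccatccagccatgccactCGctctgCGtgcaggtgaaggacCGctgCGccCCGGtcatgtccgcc
SFRP4 coding: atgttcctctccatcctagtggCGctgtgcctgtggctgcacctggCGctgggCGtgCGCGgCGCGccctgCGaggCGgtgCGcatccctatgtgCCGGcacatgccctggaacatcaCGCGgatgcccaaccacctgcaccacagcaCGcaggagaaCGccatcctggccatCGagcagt
DKK1 upstream: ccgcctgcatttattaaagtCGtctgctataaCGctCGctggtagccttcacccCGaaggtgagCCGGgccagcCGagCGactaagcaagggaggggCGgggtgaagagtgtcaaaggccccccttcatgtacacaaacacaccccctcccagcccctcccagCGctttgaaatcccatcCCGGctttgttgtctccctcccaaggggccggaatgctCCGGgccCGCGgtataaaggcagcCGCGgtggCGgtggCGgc

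In the 126 bp of WIF1 upstream, the 11 CpGs outside CCGG averaged 13.5% in DU145 and 67.7% in PC3, with single CpGs between 4.00% and 100% in PC3. In WIF1 coding, the 6 CpGs outside CCGG averaged 99.5% in HCT15, 9.01% in DU145 and 20.4% in PC3. The 16 such CpGs of SFRP5 upstream averaged 40.9% in DU145 and 61.0% in PC3, against 94.7% over 15 in HCT15. In SFRP2 coding the means were 94.8%, 99.1% and 87.6% for HCT15, DU145 and PC3. In SFRP4 coding they were 51.7%, 24.6% and 29.5%, over 13, 14 and 15 CpGs. In DKK1 upstream they were 9.03%, 0% and 0.529%, over 10, 14 and 14 CpGs. The CCGG sequence was present in 93.55% of the windows of all genes, with a median of 10 sites per window. The windows of SFRP1, SFRP2, SFRP5, WIF1, DKK1 and DKK3 held 18, 14, 11, 12, 16 and 10.

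Of the 8 genes, 6 had a measurable RRBS window, meaning at least 5 CpGs. The annotated 5′ ends of SFRP4 and DKK2 belong to long secondary transcripts, 108878 bp and 247493 bp away from the main transcript (MANE Select), and their windows held 6 and 5 CpGs in the sequence and none in RRBS. Both were therefore also examined at the main transcript, a choice made after seeing the data. In HCT15, 5 of the 6 measured promoters, all but DKK1, were in the methylated class of at least 50%, where 26% of 14246 windows were. In DU145 these were 2 (SFRP1 and SFRP2), where 18.1% of all windows were, and in PC3 they were 4 (SFRP2, SFRP5, WIF1 and DKK3), where 16.7% were. Over the CpGs outside CCGG the counts were again 5, 2 and 4, beside 22.7%, 14.4% and 13.5% of all windows. The median of the 6 windows was 93.0% in HCT15, 45.6% in DU145 and 62.4% in PC3. That of all windows was 16.8%, 16.9% and 16.1%.

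**Figure D2:**
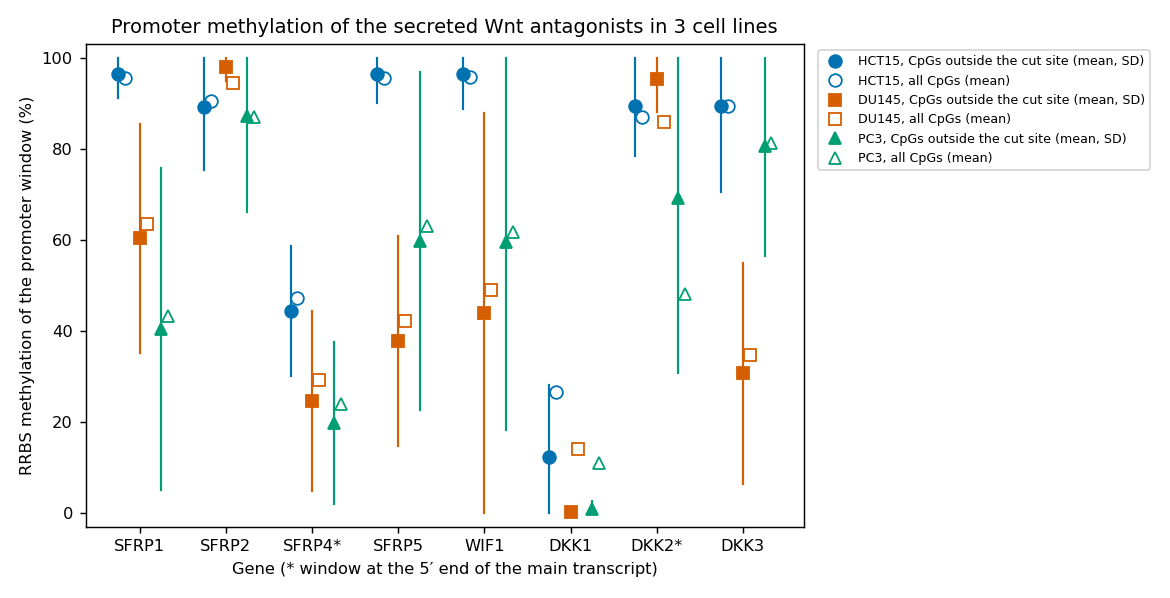
RRBS methylation (%) of the promoter window of each Wnt antagonist (vertical axis) in HCT15, DU145 and PC3. Filled symbols with bars give mean ± SD over CpGs outside the cut site CCGG, cut off at 0 and 100%, and open symbols the mean over all CpGs, with SFRP4 and DKK2 taken at the main transcript. SFRP5, WIF1 and DKK3 are at 89.4% or above in HCT15 and lowest in DU145, SFRP2 is at 87.0% or above in all 3 lines, and DKK1 is the lowest promoter in all 3.

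Differences between lines were taken over the CpGs that both lines shared. HCT15 was higher than DU145 by at least 25 points at 4 of 6 promoters (SFRP1, SFRP5, WIF1 and DKK3), as were 12.3% of 13691 windows, and at none was it lower by as much, as were 1.56%. HCT15 was higher than PC3 by that margin at 3 of 6 (SFRP1, SFRP5 and WIF1), beside 12.5% of 13114 windows, and lower at none, beside 1.61%. Between the prostate lines, only DKK3 passed 25 points, with DU145 lower than PC3, beside 3.25% of 13024 windows lower and 4.4% higher. Single CpGs were compared with Fisher's exact test, adjusted over all CpGs with at least 10 reads in both lines, and called at an adjusted p under 0.05 and 25 points. In HCT15 against DU145, 115 of the 223 CpGs of the 6 promoters were called, all but 1 of them higher in HCT15, where 7.18% of 1799022 CpGs were called higher and 6.95% lower. Against PC3, 88 of 225 were called higher and 0 lower, where 11.3% and 3.8% of 1789012 CpGs were. DU145 was called higher than PC3 at 35 and lower at 61 of 246 CpGs, where 12.1% and 3.38% of 1875371 CpGs were. CpGs on 1 restriction fragment are read from the same reads, so calls next to each other are not independent. Pooled levels below count a read again at each CpG it covers, without molecular identifiers. Their intervals are therefore too narrow even for counting error, and hold no other error. Some CpGs had far more reads than those beside them, such as 12 for HCT15 at 116 bp of SFRP1 against 6 at 108 bp. The reason was not tested, and higher counts give smaller p.

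SFRP1, at chr8:41119481-41166992 on the minus strand, had the largest difference between HCT15 and PC3 among the 6. Its window had a mean of 95.4 ± 9.08% (58 CpGs) in HCT15, 63.4 ± 25.1% (67) in DU145 and 43.3 ± 33.6% (68) in PC3. Outside CCGG the values were 96.4%, 60.3% and 40.4%. Levels were also pooled over reads, each read counted at every CpG it covers, with the 95% Wilson interval in parentheses. They were 95.5% (94.5 to 96.3), 63.1% (61.8 to 64.4) and 44.1% (42.3 to 46.1) for HCT15, DU145 and PC3. Over shared CpGs, HCT15 was 30.03 points above DU145 and 51.9 points above PC3. DU145 and PC3 changed order along the promoter. In the 100 bp before the 5′ end, 6 CpGs outside CCGG averaged 36.2% in DU145 and 80.6% in PC3, and the 11 CpGs in the first 100 bp of the gene averaged 45.5% and 86.8%. From 200 to 299 bp downstream, 11 CpGs averaged 70.9% and 19.5%, and from 900 to 999 bp 8 CpGs averaged 86.7% and 6.13%. HCT15 stayed between 87.0% and 100% in every such bin. Of the 48 CpGs called between the prostate lines, the 16 that were lower in DU145 lay from -36 to 108 bp and the 32 that were higher lay from 69 to 991 bp. The window mean, 20.1 points higher in DU145, thus combines stretches that differ in opposite directions.

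SFRP5 (chr10:99526508-99531756, minus strand) was almost fully methylated in HCT15 and partly methylated elsewhere. The mean was 95.4 ± 6.90% (51 CpGs) in HCT15, 42.2 ± 24.4% (51) in DU145 and 63.0 ± 36.5% (48) in PC3. Without CCGG the means were 96.4%, 37.8% and 59.8%. Over shared CpGs, HCT15 stood 54.0 points above DU145 and 34.4 above PC3. The pooled levels were 94.7% (93.2 to 95.8), 38.7% (36.2 to 41.2) and 58.0% (54.5 to 61.4). HCT15 was called higher at 37 of 50 CpGs against DU145 and at 23 of 47 against PC3, and lower at none. In DU145 the level varied from CpG to CpG, with single CpGs outside CCGG between 0% and 84.2%, while bins of 100 bp from -300 to 299 bp, over CpGs measured in all 3 lines, averaged between 31.0% and 48.7%. In PC3 it ran from 77.6% in the first 100 bp of the gene to 22.5% at 200 to 299 bp, and 15 of 47 CpGs were called lower in DU145 than in PC3.

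SFRP2 (chr4:154701743-154710235, minus strand) was methylated in all 3 lines at the CpGs measured, most of them downstream of its 5′ end. Its mean was 90.6% in HCT15 (32 CpGs), 94.4% in DU145 (18) and 87.0% in PC3 (28), with differences over shared CpGs of -2.37, 5.76 and 6.22 points for HCT15 minus DU145, HCT15 minus PC3 and DU145 minus PC3. Outside CCGG the means were 89.2%, 97.9% and 87.2% for HCT15, DU145 and PC3. The pooled levels of SFRP2 were 89.8% (87.8 to 91.6), 95.6% (93.6 to 97.1) and 86.8% (84.3 to 88.9). At most 2 CpGs were called in any pair. The window mean of PC3 includes 1 CpG outside CCGG, 357 bp into the gene, at 16.7%, where HCT15 had 100%. Upstream of SFRP2, HCT15 had 5 measured CpGs (mean 79.3%), PC3 had 1 (66.7%) and DU145 had none. Under the coverage limit, upstream CpGs outside CCGG averaged 86.9% in HCT15 (6 CpGs), 71.2% in DU145 (8) and 67.4% in PC3 (6). The lowest of them were at 62.5%, 11.1% and 0%. SFRP4, at its main transcript (5′ end chr7:37956419, minus strand), was at an intermediate level in HCT15, with 44.4 ± 14.3% outside CCGG (32 CpGs), against 24.7 ± 19.7% in DU145 (33) and 19.8 ± 17.7% in PC3 (34). In HCT15, 34 of its 36 CpGs lay between 20% and 80%, and none at 20% or below. In HCT15, 9 of 36 CpGs were called higher than in DU145, and 13 of 36 higher and 1 lower than in PC3.

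WIF1 (chr12:65444406-65515085, minus strand) was methylated throughout in HCT15, and in the prostate lines its upstream part was methylated and its first exon was low. The window means were 95.9 ± 7.94% (42 CpGs) in HCT15, 49.0 ± 42.6% (56) in DU145 and 61.8 ± 40.0% (53) in PC3. Outside CCGG they were 96.4%, 43.9% and 59.5%. Over shared CpGs, HCT15 stood 41.7 points above DU145 and 33.3 above PC3. Pooled over reads, WIF1 had 95.4% (93.9 to 96.5), 44.6% (42.6 to 46.7) and 57.3% (54.97 to 59.7). From -968 to -588 bp, the 16 CpGs outside CCGG averaged 93.5% in HCT15, 94.1% in DU145 and 95.1% in PC3. From -24 to 198 bp, 16 such CpGs averaged 99.02%, 4.74% and 18.2%. Between these blocks, in the WIF1 upstream sequence printed above, the prostate lines differed. All 11 CpGs outside CCGG were at most 45.9% in DU145, and no CpG between -588 and -404 bp was measured in that line. At -358 bp, DU145 had 6 of 73 reads methylated (8.22%) and PC3 56 of 58 (96.6%). The CpGs at -353 and -370 bp had only 37 reads in DU145 and 25 in PC3. Their levels were 27.0% and 24.3% in DU145, and 100% in PC3. At -334 bp both were low, with 5.41% in DU145 and 16.7% in PC3, and 9 of the 11 CpGs called lower in DU145 than in PC3 lay upstream of the gene. HCT15 had only 6 reads at each of 10 CpGs outside CCGG from -398 to -315 bp, all of them methylated.

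DKK3 (chr11:11977754-12031316, minus strand) was the promoter that set DU145 apart from both other lines. Its mean was 89.4 ± 18.3% (33 CpGs) in HCT15, 34.8 ± 26.7% (46) in DU145 and 81.3 ± 22.9% (38) in PC3. Outside CCGG these were 89.4%, 30.7% and 80.5%. Over shared CpGs, HCT15 minus DU145 was 61.5 points, HCT15 minus PC3 6.04 points and DU145 minus PC3 -50.1 points. DU145 was called lower at 26 of 33 CpGs against HCT15 and at 19 of 27 against PC3, while none of 27 was called between HCT15 and PC3. From 457 to 534 bp into the gene, 14 CpGs outside CCGG averaged 97.4%, 28.0% and 95.2% for HCT15, DU145 and PC3. All measured CpGs lay downstream of the gene's 5′ end, and the first exon of the main transcript begins 1143 bp from it. Pooled over reads, DKK3 had 90.1% (88.2 to 91.6), 32.8% (30.8 to 34.8) and 86.9% (85.0 to 88.6). At the main transcript the means were 92.0%, 34.3% and 81.3%.

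DKK1 (chr10:54074041-54077802, plus strand) had the lowest window, at 26.6 ± 27.6% (23 CpGs) in HCT15, 14.1 ± 24.3% (34) in DU145 and 11.1 ± 21.3% (61) in PC3. The pooled levels of DKK1 were 29.8% (25.5 to 34.5), 15.6% (13.4 to 18.1) and 14.2% (13.1 to 15.3). The CpGs inside CCGG were the more methylated ones. Outside CCGG the means were 12.4% (16 CpGs), 0.193% (25) and 0.834% (48), with no CpG above 20% in either prostate line. The HCT15 level lay close to the 5′ end, where 7 CpGs in the last 100 bp before the gene averaged 18.8%, against 0.348% in DU145 and 0.675% in PC3. From -10 to 38 bp, 4 CpGs were called higher in HCT15 than in DU145. A stretch further into the gene fell just under the coverage limit. At 13 CpGs outside CCGG from 195 to 341 bp, HCT15 had 9 reads each and averaged 97.4%, while PC3, with 68 or 69 reads, had at most 1.47%. With CpGs of at least 6 reads, the HCT15 window mean was 53.5% and HCT15 stood 41.1 points above PC3 in place of 8.75. None of these CpGs is listed for DU145, and the lowest coverage listed in the files is 6 reads.

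DKK2, at its main transcript (5′ end chr4:107957470, minus strand), rested on few CpGs. Outside CCGG it averaged 89.4 ± 11.0% in HCT15 (14 CpGs), 95.3 ± 7.27% in DU145 (6) and 69.2 ± 38.5% in PC3 (8). In the block from -779 to -588 bp, the 6 CpGs outside CCGG shared by all lines averaged 90.4%, 95.3% and 88.0%, and at most 2 CpGs were called in any pair.

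**Figure D3:**
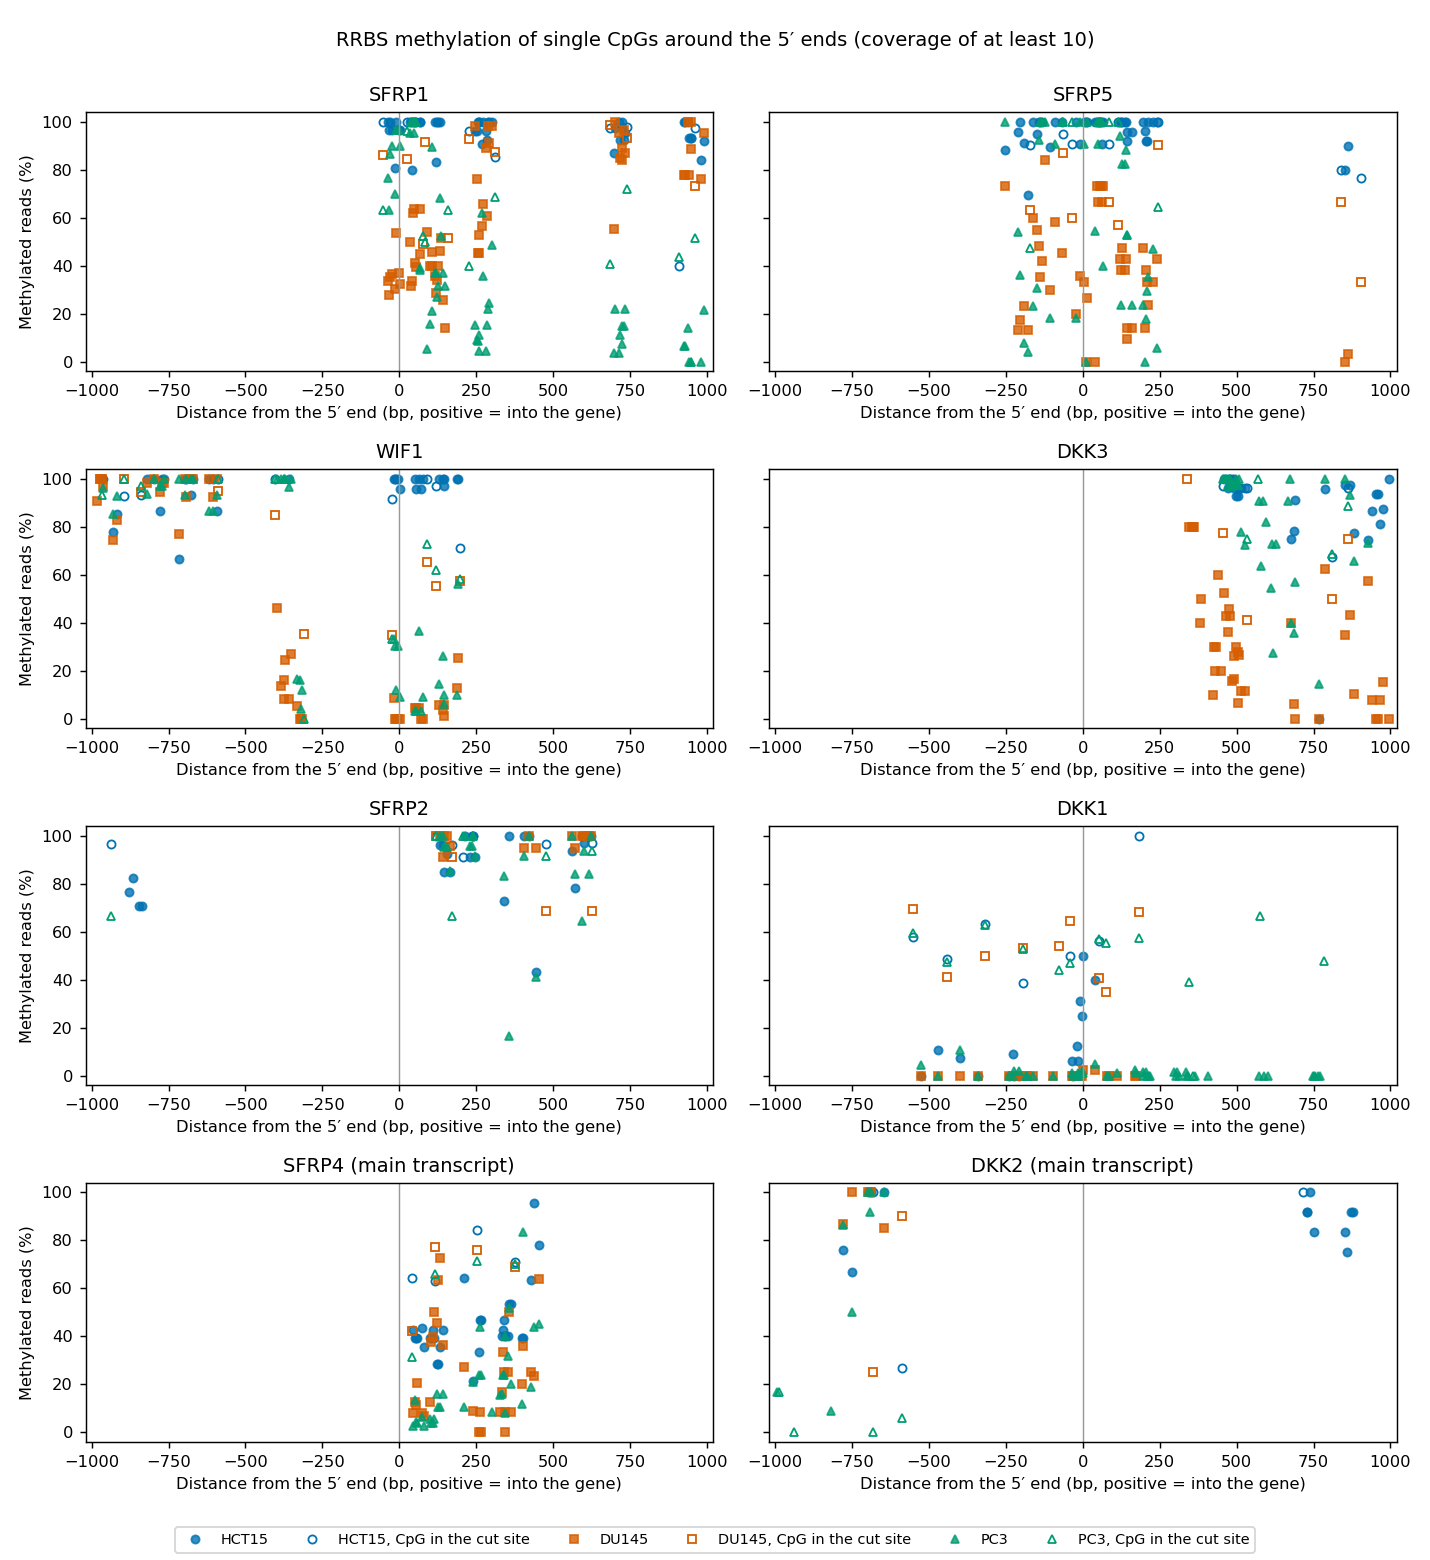
Share of methylated reads (%) at each CpG with at least 10 reads (vertical axis) against its distance from the 5′ end in bp (horizontal axis, positive into the gene), for 8 Wnt antagonists in HCT15 (circles), DU145 (squares) and PC3 (triangles). Open symbols are CpGs in the cut site CCGG. DU145 and PC3 cross over in SFRP1, fall from near 100% to near 0% upstream of WIF1, and are near 0% in DKK1 except at open symbols.

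MBD-seq gave few fragments per promoter. Of the 120 combinations of the 8 windows at the annotated 5′ ends and 15 libraries, 73 held at least 1 fragment, and the SFRP4 and DKK2 windows together held 6, all from MethylMiner. SFRP5 had the most. For MethylMagnet, MethylCollector, MethylCollector Ultra, MethylCap and MethylMiner in turn, it had 3, 22, 23, 53 and 21 fragments for HCT15, 0, 0, 0, 9 and 13 for DU145, and 3, 2, 3, 7 and 5 for PC3. SFRP1 had 9, 12, 17, 33 and 14 for HCT15, 1, 3, 1, 11 and 5 for DU145, and 8, 0, 5, 3 and 9 for PC3. At SFRP1, HCT15 had more fragments than both prostate lines with all 5 kits, and at SFRP5 with all but MethylMagnet, where it tied with PC3 at 3. These raw counts also follow depth, and HCT15 MethylCap was the second deepest of the 15 libraries. Over the 4 kits other than MethylMiner, SFRP5 had a per-million level of 20.8 in HCT15, 10.1 in DU145 and 8.08 in PC3, whereas SFRP1 had 14.6, 17.9 and 8.62, with DU145 above HCT15. These levels pool kits whose shares of the fragments differed between lines, and that of SFRP5 in DU145 rests on 9 MethylCap fragments alone. With MethylCap alone, SFRP5 had 13.6, 10.9 and 7.37, and SFRP1 had 8.49, 13.4 and 3.16.

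The other promoters had fewer. WIF1 had 2, 3, 8, 23 and 7 fragments for HCT15, 0, 1, 0, 5 and 9 for DU145, and 2, 0, 3, 7 and 5 for PC3. SFRP2 had 0, 6, 8, 25 and 14 for HCT15, 0, 0, 0, 2 and 1 for DU145, and 4, 3, 7, 1 and 5 for PC3. DKK3 had 1, 2, 4, 16 and 9 for HCT15, 0, 0, 1, 1 and 5 for DU145, and 3, 0, 5, 4 and 2 for PC3. The 8 windows together had a per-million level of 250.1 in HCT15 MethylMagnet, 176.9 in MethylCollector, 98.04 in MethylCollector Ultra, 41.7 in MethylCap and 10.2 in MethylMiner. PC3 ranked the kits alike, from 86.8 to 19.1, while in DU145, from 135.1 to 11.502, MethylCollector was above MethylMagnet (99.6, from 1 fragment).

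**Figure D4:**
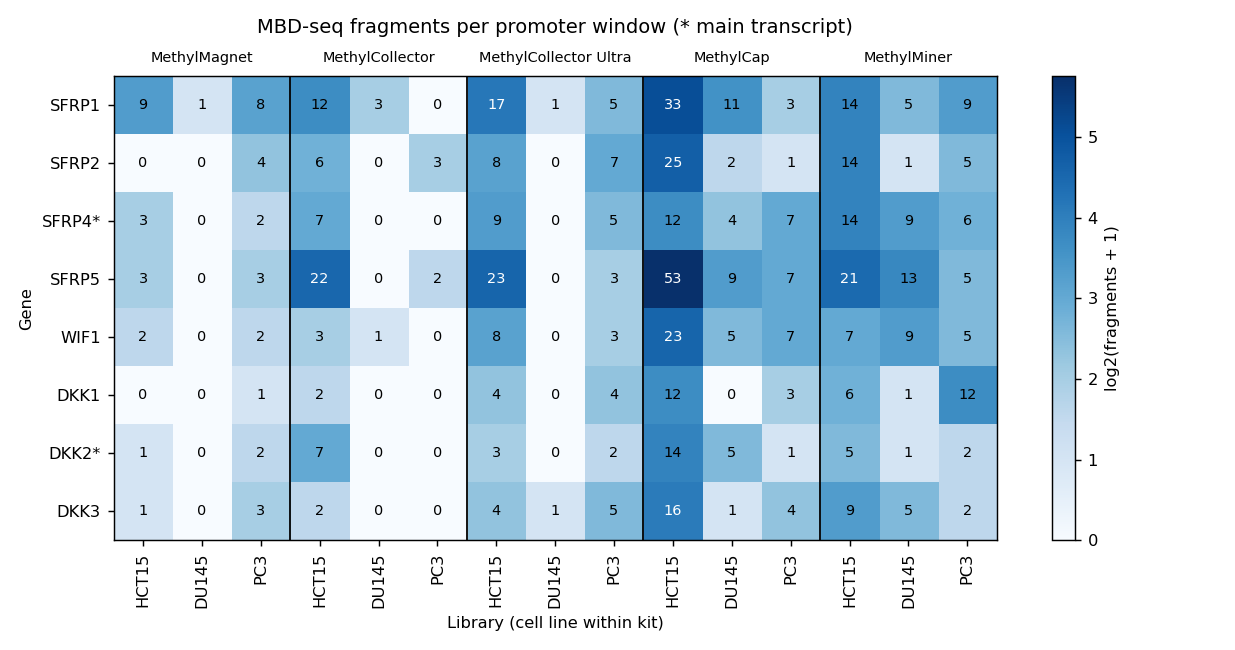
Number of MBD-seq fragments in the promoter window of each Wnt antagonist (rows, SFRP4 and DKK2 at the main transcript) in each of 15 libraries (columns, 3 cell lines within 5 kits), with colour for log2(fragments + 1). HCT15 MethylCap holds the highest count of each row except DKK1 and SFRP4, where it shares or follows MethylMiner libraries.

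Counts were compared between lines with edgeR's quasi-likelihood test, with kit as a block and library size set to all fragments. The test covered 17421 windows with at least 10 fragments, among them 6 of the 8 genes. None of the 6 was called between any 2 lines at an adjusted p under 0.05, where 0.0172% of windows were called for HCT15 against DU145, 2.39% for HCT15 against PC3 and 0.235% for DU145 against PC3. At an unadjusted p under 0.05, in either direction, there were 2, 2 and 3 of 6, beside 6.5%, 13.4% and 9.04% of all windows. For HCT15 minus DU145 these were SFRP2 (log2 fold change 1.80) and DKK1 (2.58). SFRP1 (-0.23), SFRP5 (0.67), WIF1 (-0.38) and DKK3 (0.09), where RRBS put HCT15 higher by the margin given above, were not among them. For HCT15 minus PC3 they were SFRP1 (1.07) and SFRP5 (1.47). For DU145 minus PC3 they went both ways, with SFRP1 at 1.30, SFRP2 at -1.75 and DKK1 at -3.53. DESeq2, which gave no adjusted p for some windows, also called none of the 6. Over all windows it called 22 higher and 0 lower for HCT15 minus DU145, and 127 and 49 for HCT15 minus PC3. For DU145 minus PC3 these were 2 and 58. limma called no window of any gene between lines, so it cannot speak to these 6. The smallest adjusted p for HCT15 against PC3 was that of SFRP5, with a log2 fold change of 1.47 ± 0.50 (SE, adjusted p = 0.0923 by edgeR). Without MethylMiner, HCT15 was higher than PC3 at SFRP1 (1.85, edgeR adjusted p = 0.00290) and SFRP5 (1.74, adjusted p = 0.00474), and DU145 was higher than PC3 at SFRP1 (2.40, adjusted p = 0.0295). That fit covered 7995 windows, of which 15.4% were called higher in HCT15 than in PC3 and 1.4% higher in DU145 than in PC3, and the median log2 fold change over them was 0.51 for HCT15 minus PC3.

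The place of the fragments was read in steps of 500 bp. In SFRP1, in the second 500 bp of the gene, the 4 kits without MethylMiner gave 45 fragments for HCT15, 11 for DU145 and 3 for PC3, although these kits had more fragments in all in PC3 than in DU145. In the first 500 bp they gave 30, 9 and 11. In WIF1, the 4 kits gave 4 fragments in DU145 between -1000 and -501 bp, 2 between -500 and -1 bp and 0 in the first 500 bp of the gene. In PC3 these were 4, 9 and 3, and in HCT15 they were 11, 23 and 12.

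In the same order of kits, the DKK1 counts were 0, 2, 4, 12 and 6 for HCT15, 0, 0, 0, 0 and 1 for DU145, and 1, 0, 4, 3 and 12 for PC3. Its log2 fold change was -3.53 ± 1.05 for DU145 minus PC3 (edgeR adjusted p = 0.149). In DU145 this value rests on 1 MethylMiner fragment, since the 4 other kits had none. In HCT15, 8 of the MethylCap fragments overlapped the first 500 bp of the gene and 6 the next 500 bp, and 1 the 500 bp before it. In PC3, 10 of the 12 MethylMiner fragments overlapped the first 500 bp, where MethylCap had 0. MethylMiner depth within 1 Mb either side of DKK1, relative to the median gene, was 0.416 in HCT15, 0.512 in DU145 and 1.43 in PC3. At SFRP2 it was 0.768, 0.284 and 0.491. The part of local depth in these counts was not tested.

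Between kits, SFRP5 and WIF1 were higher in MethylCap than in MethylMiner, with log2 fold changes of 1.69 ± 0.59 (edgeR adjusted p = 0.0275) and 1.71 ± 0.64 (adjusted p = 0.0377), and 7.09% of windows were called in that direction. At an unadjusted p under 0.05, 4 of 6 were higher in MethylCap, beside 12.8% of all windows. SFRP1 had 1.51 ± 0.61 (adjusted p = 0.0532), DKK3 1.34 ± 0.67 (adjusted p = 0.121), SFRP2 1.28 ± 0.68 (adjusted p = 0.146) and DKK1 0.38 ± 0.69 (adjusted p = 0.720), while the median over all windows was -0.42. With TMM scaling, which moved that median to -0.99, none of the 6 was called, and DESeq2 and limma called none. Of 17421 windows these called only 121, 143 and 43 higher in MethylCap, against 1236 in the main fit, so none of 6 is little information. At the main transcript, DKK2 was also called (2.28 ± 0.76, edgeR adjusted p = 0.0204), where 6.61% of windows were called higher. Without HCT15 or without DU145, neither SFRP5 nor WIF1 was called. Those fits called 421 of 10364 windows and 1 of 16160 windows higher in MethylCap, so without DU145 almost no window of any gene was called. Without PC3, SFRP5 was not called either (edgeR adjusted p = 0.0516), while WIF1 (adjusted p = 0.0414) and SFRP1 (adjusted p = 0.0171) were. In that fit 1097 of 16251 windows were called higher in MethylCap.

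**Figure D5:**
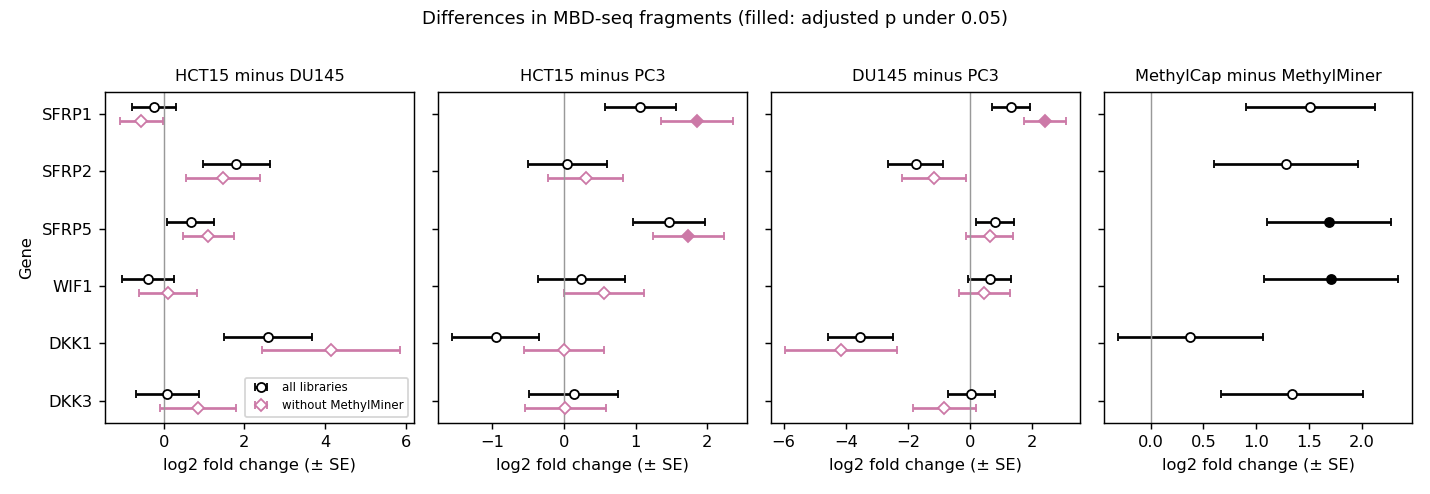
log2 fold change ± SE of MBD-seq fragments (horizontal axis) at the 6 Wnt antagonist windows that passed the limit on fragments (rows), for 3 pairs of cell lines and for MethylCap minus MethylMiner. Black circles use all libraries, pink diamonds leave out MethylMiner, and filled symbols have an edgeR adjusted p under 0.05. With all libraries SFRP5 and WIF1 are filled in the kit comparison only, and without MethylMiner SFRP1 is filled against PC3 for both other lines and SFRP5 for HCT15.

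Among the other lists of Wnt genes, the ligands had the largest share of methylated windows in HCT15. At least 50% was reached by 9 of 13 measured ligand windows in HCT15, 1 of 12 in DU145 and 2 of 12 in PC3. HCT15 was higher than DU145 by 25 points at 7 of 12 ligands, led by WNT7A (93.8% against 12.3%), WNT5B (95.2% against 22.1%) and WNT6 (90.8% against 20.2%), which in PC3 had 18.0%, 26.0% and 12.5% over the CpGs shared with HCT15. Among 23 receptor and R-spondin genes 6 were higher in HCT15 than in DU145, led by RSPO3, which amplifies Wnt signals (91.9% against 22.8%), and ROR2, a Wnt receptor (93.9% against 31.4%), and ROR2 was also higher than in PC3 by 62.3 points. Among 15 intracellular genes 2 were. None of 8 other extracellular inhibitors was higher than in DU145 by 25 points. FRZB, a further SFRP family member, had 90.8% in HCT15, 83.2% in DU145 and 29.98% in PC3 over shared CpGs.

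Between the prostate lines, DU145 was higher at RSPO2 (90.1% against 28.7%) and lower at RSPO4 (39.6% against 89.0%), WNT10B (40.3% against 69.6%) and NKD2, an intracellular inhibitor (27.3% against 56.0%). In MBD-seq, 6 of these genes were called for HCT15 minus PC3. They included WNT6 (log2 fold change 3.38, edgeR adjusted p = 0.00150), LGR5, a receptor of R-spondins (-3.17, adjusted p = 0.00597), TCF7L1 (3.01, adjusted p = 0.00902), RSPO3 (2.71, adjusted p = 0.0245) and LGR6 (2.49, adjusted p = 0.0131). Outside the Wnt lists, the windows most like SFRP1 in the 3 means, among 9046 with at least 20 CpGs per line, were BHLHE22 (mean absolute difference 0.561 points) and GAS7 (2.03 points). For SFRP5 they were SPOCK2 (0.505) and IRF4 (1.52), for WIF1 PTF1A (2.48) and SLC6A3 (2.497), and for DKK3 SLC6A17 (2.58) and ZFP42 (2.68). Between 18 and 27 windows came within 5 points of each of these 4 promoters.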

How the data were processed

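The data were 18 libraries, 15 from MBD-seq and 3 from RRBS. The authors mapped paired MBD-seq reads to hg19 with Bowtie (version not given in the sources used here), kept unique, non-duplicate pairs within 400 bp, and deposited a coverage signal, the number of fragments over each base, not scaled to depth. Fragments were rebuilt from the rises of this coverage, which undercounts where one fragment starts as another ends. The authors deposited the RRBS libraries as 2 counts at each CpG, the methylated reads and the coverage. Its aligner and enzyme are not given in the sources used here. At least 10 reads covered 2195724, 2398973 and 2377143 CpGs of HCT15, DU145 and PC3 (medians 23, 33 and 26 reads).

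Gene 5′ ends came from GENCODE 44 on GRCh37. Windows needed 5 CpGs. The 18 samples form 18 groups of 1, from their titles. Single CpGs were tested with Fisher's exact test, written for this purpose and checked against scipy 1.17.1. Windows were tested with edgeR 4.0.16 (limma 3.58.1 and DESeq2 1.42.0 as alternatives, R 4.3.3) on the rebuilt counts, a step for count data taken because the coverage is unscaled. The scripts were tested on simulated data. Alternatives covered coverage, window width, pooled reads, shared CpGs, scaling, filters, the kit block and each kit left out; the main transcript, CpGs outside CCGG and a limit of 80% were added after seeing the data. Named genes were all 8 antagonists, other Wnt genes past 25 points or called (at most 5 per pair of lines), and the 2 windows most like each antagonist that differed by 25 points. The genes (whose rule uses no measured value) and the lists were chosen with earlier results of these data known. RRBS window means have no test, for want of replicates. A Wilson interval of pooled reads counts a read at each CpG it covers, so it is too narrow even for counting error.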

Additional observations from a re-analysis of the deposited data

How the results depend on the processing

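The counts of promoters in the methylated class and past 25 points kept within 1.5 times the values given under every change of coverage, width, pooling or transcript, and without CCGG. At a limit of 80%, for which no share of all windows is given here, the class held 1 promoter for DU145 and 2 for PC3. A minimum of 20 reads left 58 CpGs called between HCT15 and PC3 in place of 88. It also left fewer CpGs to test, since SFRP5 in PC3, for one, had a median coverage of 13. For SFRP1, HCT15 minus DU145 was 24.5 points at 20 reads and 21.1 within 2 kb. In MBD-seq, leaving out each kit in turn gave 0 to 2 promoters called for HCT15 minus PC3, 0 to 1 for DU145 minus PC3 and 0 to 0 for HCT15 minus DU145. The 2 and the 1 came without MethylMiner. SFRP5 alone (1 promoter) was called for HCT15 minus PC3 with at least 30 fragments (edgeR adjusted p = 0.0498) and within 2 kb. In these fits 442 of 7993 and 526 of 19121 windows were called higher. For MethylCap minus MethylMiner, leaving out each line gave 0 to 2. TMM, DESeq2 and limma gave 0, but called few windows of any gene higher, as given above. Windows of 500 bp gave 1, beside 752 of 13542 windows called higher. Without the kit or line as a replicate block, 1 was called between these kits, beside 931 of 17421 windows higher, and 0 between lines. Over all windows, those fits called 0 higher and 2 lower for HCT15 minus DU145, and 97 and 36 for HCT15 minus PC3. For DU145 minus PC3 they called 0 and 0. The kit or line was part of the main fit, since every kit was used on every line. The causes were not tested. Depth limits MBD-seq most in DU145, where MethylMagnet, MethylCollector and MethylCollector Ultra had 10040, 29613 and 30336 fragments.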
